A study of Mus musculus with 9 samples.

Results

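Albumin and 8 other carrier proteins that the liver releases into plasma were followed in mouse liver tumors: Alb, Gc, Afm, Ttr, Rbp4, Trf, Ahsg, Ambp and Hrg. The genes were chosen by name, each as the entry that carries its symbol in the gene table of a tumor, and they are 9 of the 52163 named genes. Each gene had exactly 1 entry per tumor, giving 81 values, and 1 of these values (Afm in responsive tumor 1) was shared with a neighboring predicted gene, Gm2602. RNA of 9 tumors was sequenced, with 3 tumors in each of 3 groups and 1 tumor per mouse. The tumors grew from pieces of subcutaneous Hepa1-6 tumors, a mouse hepatoma line, implanted into the left liver lobe of male C57BL/6 mice, which the study's methods describe as bought at 6 to 8 weeks of age. The control group received PBS, and the antibody groups received anti-PD-1 antibody (clone RMP1-14), in both cases intraperitoneally 5 times, every 4 days from day 10 to day 26. The whole tumor was taken on day 27 and freed of the tissue around it. Among antibody-treated tumors the smallest were taken as responsive and the largest as nonresponsive, and tumors of intermediate size were left out, so the antibody groups were formed by outcome and not by random assignment. Hepa1-6 is a single cell line, and a tumor in the liver also holds cells of its host.

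Hepatocytes make most of the proteins of plasma and secrete them through the Golgi apparatus. Albumin is the most abundant protein of plasma and binds fatty acids, bilirubin and many drugs. The vitamin D-binding protein Gc and the vitamin E-binding protein afamin (Afm) belong to the albumin family. Transthyretin (Ttr) carries thyroid hormone and holds retinol-binding protein (Rbp4) in plasma, transferrin (Trf) carries iron, fetuin-A (Ahsg) binds calcium phosphate, and Hrg binds heme, zinc and heparin. Ambp encodes a precursor that is cut into the heme-binding alpha-1-microglobulin and the protease inhibitor bikunin. Hepatocyte genes of this kind are known to be transcribed under HNF1, HNF4, C/EBP and FOXA factors.

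Alb, Gc and Afm, the albumin family genes among the 9, each held the same short letter match, and their sequences are shown for that reason. Of the 9 genes, 7 had a promoter among the RefSeq sequences used here (GRCm38.p6); Trf and Ttr had none. The HNF1 core letters GTTAAT, searched on both strands (reverse ATTAAC) in the 250 bases before the start, was found in 3 of these 7, namely Alb, Gc and Afm, and in 6.43% of all 32851 promoters. The match began 32 bases before the start in Alb and 52 bases before it in Gc, and Afm held 1 match in each orientation, at 138 and 73 bases. All of them lie on chromosome 5, at chr5:90460750-90460869 (plus strand) for the Alb stretch, chr5:89457899-89458018 (minus strand) for Gc and chr5:90518799-90518948 (plus strand) for Afm. The sequences run 5′ to 3′ up to the base before the start, and capitals mark the HNF1 core in either orientation.
Alb: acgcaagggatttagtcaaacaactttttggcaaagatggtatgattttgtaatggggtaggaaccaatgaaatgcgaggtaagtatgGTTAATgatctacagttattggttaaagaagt
Gc: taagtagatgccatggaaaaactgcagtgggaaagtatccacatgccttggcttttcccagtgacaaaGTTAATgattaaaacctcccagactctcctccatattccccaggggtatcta
Afm: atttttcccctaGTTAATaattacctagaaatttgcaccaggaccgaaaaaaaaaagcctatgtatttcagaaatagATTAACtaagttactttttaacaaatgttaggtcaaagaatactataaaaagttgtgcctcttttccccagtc
The C/EBP letters TTGCNNAA were present in Alb, Rbp4, Ahsg and Hrg and in 9.56% of all promoters. The HNF4 letters CAAAGTC were present in Alb and Ahsg (3.84% of all), the forkhead letters TGTTTNC in Alb, Rbp4, Ahsg and Ambp (17.8%), the FOXA letters TATTTAC in Hrg (2.73%), and TATAAA in Rbp4 and Afm (12.4%). A match describes the letters of the window and says nothing of binding.

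Levels are given as FPKM, fragments per transcript length and mapped fragments, which can be compared between genes. Relative depth, read from the steps between low FPKM values, lay between 0.936 and 1.07 times that of PBS tumor 1, and log2 values of 2 tumors correlated at 0.666 to 0.907 across genes. Entries without a gene name held 19.2% to 81.5% of the summed FPKM of a tumor, and the named genes summed to between 651110 and 814452 FPKM. Several libraries stood apart from their groups. In PBS tumor 1 the 14 hepatocyte markers summed to 153 FPKM, against 1028 or more in every other tumor. Nonresponsive tumor 2 held pancreatic acinar transcripts (Ctrb1 at 415 FPKM and Prss2 at 255 FPKM, each below 1 in all other tumors), and the summed skeletal muscle markers reached 155 FPKM in nonresponsive tumor 3 and 58.2 FPKM in PBS tumor 1, against at most 16.1 FPKM elsewhere. Some of the medians and counts without these tumors are given with the comparisons and lists. Nonresponsive tumor 1 and responsive tumor 1, with the highest level of each carrier gene in their groups, also stood apart. Their proliferation genes Mki67, Top2a and Cdk1 summed to 39.8 and 41.0 FPKM, against 130 to 388 FPKM elsewhere. Afp and Stra6 were each below 1 FPKM in these 2 tumors alone.

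The carrier mRNAs ranged from 5041 FPKM (Alb in responsive tumor 1) to 0.217 FPKM (Afm in PBS tumor 1). Summed over the 9 genes they made up 0.0974% of the FPKM of named genes in PBS tumor 1 and 2.10% in responsive tumor 1. Among the 9 genes, Alb and Trf held the first and second place in every tumor, Hrg the eighth and Afm the ninth. Ahsg took the third place in 8 of 9 tumors. All 9 genes passed the filter on low values in all 3 comparisons, and apart from Afm in PBS tumor 1 each was above 1 FPKM in each tumor. In bulk RNA, fewer cells of a type and less RNA per cell cannot be told apart.

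**Figure D1:**
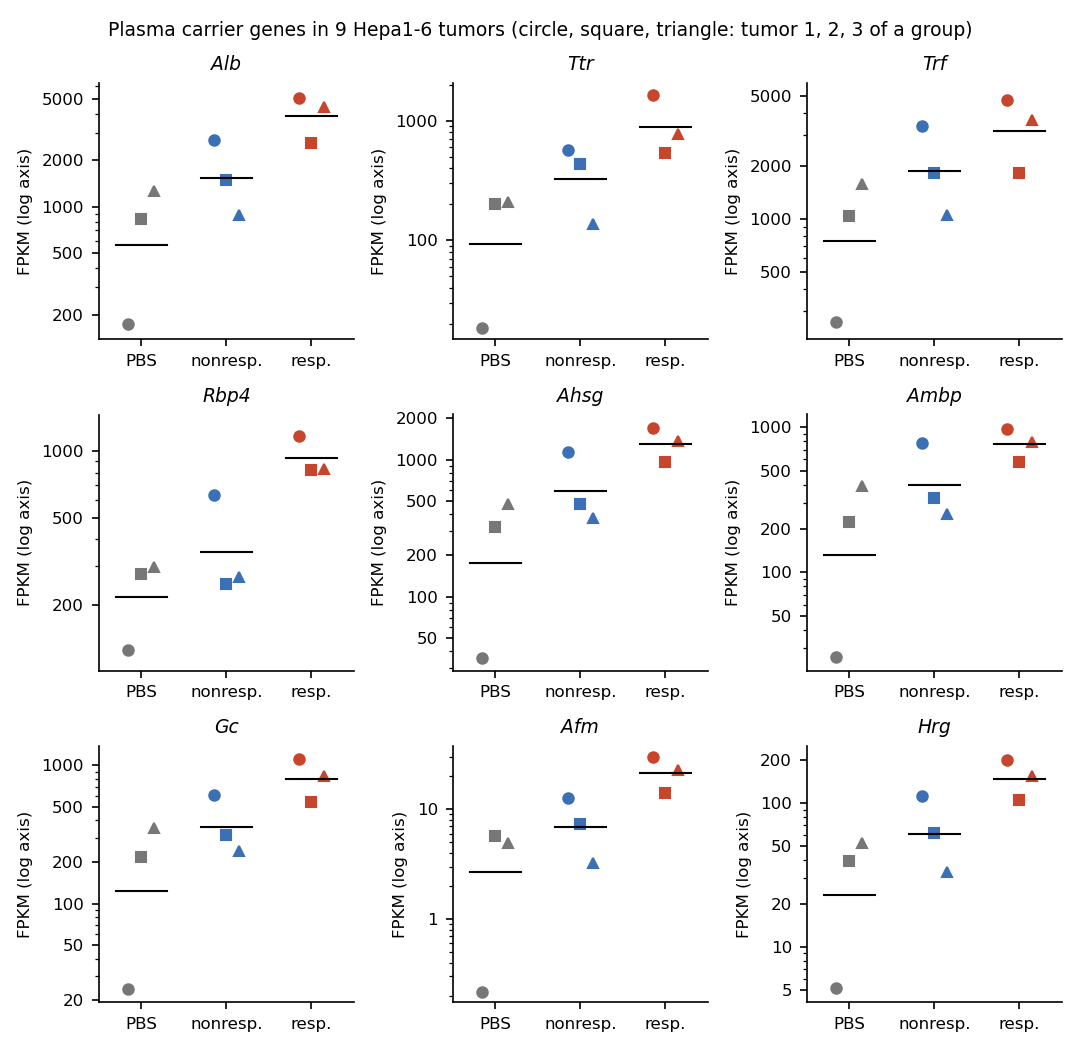
FPKM of each carrier gene (log axis, a different range in each panel) in PBS, nonresponsive and responsive tumors; each point is 1 tumor and each bar the group mean on the log2(FPKM + 1) scale. PBS tumor 1 (circle) is lowest for every gene, at 173 FPKM for Alb, and responsive tumor 1 is highest for every gene, at 5041 FPKM for Alb.

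Within the albumin family, Alb measured 173, 835 and 1259 FPKM in the 3 PBS tumors, 2678, 1490.0 and 885 FPKM in the nonresponsive tumors and 5041, 2576 and 4396 FPKM in the responsive tumors. The lowest responsive tumor lay just under the highest nonresponsive tumor, and all responsive tumors lay above all PBS tumors. Gc measured 24.1, 216 and 349.6 FPKM, then 610.5, 315 and 239 FPKM, then 1105, 544 and 833 FPKM in the same order of groups and tumors. Its value in responsive tumor 3 came with a Cufflinks interval from 0 to 96814.5 FPKM, far wider than that of any other value here, and without that tumor the responsive over nonresponsive log2 difference of Gc was 1.11 against 1.15 with it. Afm, the weakest of the 9, measured 0.217, 5.77 and 4.97 FPKM in PBS tumors, 12.7, 7.42 and 3.27 FPKM in nonresponsive tumors and 30.3, 14.1 and 22.8 FPKM in responsive tumors, with no overlap of the responsive tumors with either other group. Its value of 30.3 FPKM is the one shared with Gm2602, and without that tumor its responsive over nonresponsive log2 difference was 1.26 against 1.50.

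The pair that moves retinol and thyroid hormone differed in spread. Ttr measured 18.5, 200.3 and 210.1 FPKM in PBS tumors, 568, 437 and 136 FPKM in nonresponsive tumors and 1656, 540.0 and 774 FPKM in responsive tumors, an 89.7-fold range over the 9 tumors. Rbp4 measured 126, 277 and 297 FPKM, then 632, 251 and 268 FPKM, then 1174, 819 and 833 FPKM, the narrowest range of the 9 genes at 9.31-fold. Rbp4 was thus highest in the 3 responsive tumors, while the nonresponsive and PBS tumors overlapped. The ratio of Ttr to Rbp4, whose proteins travel together in plasma, ran from 0.147 in PBS tumor 1 to 1.74 in nonresponsive tumor 2 and overlapped between all groups.

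Trf measured 258, 1044 and 1586 FPKM in PBS tumors, 3403, 1836 and 1057 FPKM in nonresponsive tumors and 4756, 1816 and 3682 FPKM in responsive tumors. Responsive tumor 2 lay below nonresponsive tumors 1 and 2, so that the antibody groups overlapped more for Trf than for Alb. Ahsg measured 35.8, 324 and 470.3 FPKM, then 1136, 478 and 375 FPKM, then 1706, 961 and 1368 FPKM, and Ambp measured 26.2, 222 and 392 FPKM, then 779, 324 and 254 FPKM, then 976, 576 and 786 FPKM. For both, nonresponsive tumor 1 lay among the responsive tumors. Hrg measured 5.13, 39.6 and 53.2 FPKM in PBS tumors, 112, 62.1 and 33.0 FPKM in nonresponsive tumors and 199.6, 106 and 153 FPKM in responsive tumors, again with 1 nonresponsive tumor above the lowest responsive one.

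The comparison of responsive with nonresponsive tumors asks which genes differ with the outcome of antibody treatment. All 9 carrier genes had a higher mean in responsive tumors, by log2 differences of 0.76 (Trf) to 1.50 (Afm), against 42.5% of all genes tested with a higher mean. No gene of the 9 passed limma's test after Benjamini-Hochberg adjustment over 13832 genes, with adjusted p-values from 0.886 to 0.973, while 0.116% of all genes passed. Without adjustment, 5 of 9 had a p-value under 0.05 (Alb, Rbp4, Gc, Afm and Hrg), all higher, where 4.05% of all genes were called higher in this way. Groups did not overlap for 2 of 9, Rbp4 and Afm, against 5.78% of all genes.

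Mean Alb was 4004 ± 1278 FPKM (SD, n = 3) in responsive and 1684 ± 912 FPKM (SD, n = 3) in nonresponsive tumors. On the log2(FPKM + 1) scale the difference was 1.34 with a standard error of 0.54, and limma gave an unadjusted p of 0.0492 and an adjusted p of 0.886. Rbp4 had the smallest unadjusted p-value of the 9, with means of 942 ± 201 and 383 ± 215 FPKM (SD, n = 3 each) and a log2 difference of 1.41 with a standard error of 0.44. Its limma p was 0.0185 before and 0.886 after adjustment. The log2 difference of Afm was 1.50 (unadjusted p = 0.0239), of Hrg 1.26 (unadjusted p = 0.0445) and of Gc 1.15 (unadjusted p = 0.0490). The differences of Ttr (1.45, unadjusted p = 0.0799), Ahsg (1.15, unadjusted p = 0.0635), Ambp (0.93, unadjusted p = 0.110) and Trf (0.76, unadjusted p = 0.260) did not reach 0.05 before adjustment either.

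The median log2 difference of the 9 genes was 1.26, against -0.066 over all genes tested. It ran from 0.83 without nonresponsive tumor 3, the tumor with muscle transcripts, to 1.68 without nonresponsive tumor 1. The number of carrier genes with an unadjusted p-value under 0.05 changed with the tumors used, and so did the share of all genes called higher. Without nonresponsive tumor 2, the tumor with pancreatic transcripts, it was 0 of 9 (1.56% of all genes), and without responsive tumor 1 also 0 (1.53%). It was 1 without nonresponsive tumor 3 (2.09%) or responsive tumor 3 (1.61%), 5 without responsive tumor 2 (4.93%) and 7 without nonresponsive tumor 1 (7.16%). With all 9 tumors in a single fit it was 1 (443 genes of all called higher), and with the spread of each gene estimated on its own it was 1 as well (2.94%).

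**Figure D2:**
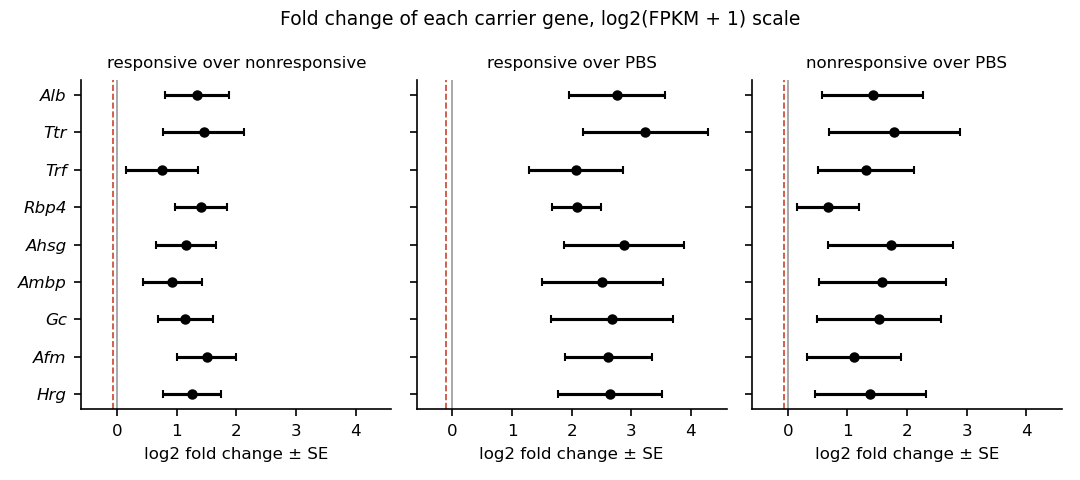
log2 differences between groups on the log2(FPKM + 1) scale for each carrier gene, with limma's standard error; the gray line is 0 and the dashed red line the median of all genes tested in that comparison. Every point lies above both lines, with error bars of 0.41 (Rbp4) to 1.05 (Ttr) in the responsive over PBS panel.

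Responsive tumors were also set against PBS tumors, which asks how the smallest tumors under antibody differ from untreated ones. All 9 carrier genes were higher in each responsive tumor than in each PBS tumor, where 11.6% of all genes showed such separation in this direction. Mean levels were higher for 42.1% of all genes. Log2 differences ran from 2.07 (Trf) to 3.24 (Ttr), with a median of 2.64 against -0.11 over all genes. No gene of the 9 passed the adjusted test (adjusted p-values 0.281 to 0.289, 0.231% of all genes passing), and 8 of 9 had an unadjusted p-value under 0.05, against 8.48% of all genes called higher. The exception was Ambp, at an unadjusted p of 0.0502.

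Rbp4 had the smallest p-value here too, with a log2 difference of 2.08, a standard error of 0.41 and limma p-values of 0.00251 before and 0.281 after adjustment. Alb differed by 2.76 with a standard error of 0.81 (unadjusted p = 0.0156), Ahsg by 2.88 (unadjusted p = 0.0300), Gc by 2.68 (unadjusted p = 0.0421), Hrg by 2.64 (unadjusted p = 0.0241) and Afm by 2.61 (unadjusted p = 0.0126). PBS tumor 1, low in hepatocyte markers, was the lowest of its group for each gene. Without it the median log2 difference was 1.69, and single genes ran from 1.30 (Trf) to 2.10 (Ttr), with 8 of 9 under an unadjusted p of 0.05 (6.37% of all genes called higher). Only 3 of 9 were under it without responsive tumor 1 (4.09% of all genes), without responsive tumor 3 (4.76%) or with the spread of each gene estimated on its own (6.38%).

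The comparison of nonresponsive with PBS tumors asks how the largest tumors under antibody differ from untreated ones. Log2 differences of the 9 genes lay between 0.67 (Rbp4) and 1.79 (Ttr), with a median of 1.42 against -0.057 over all genes, and limma's unadjusted p-values between 0.146 and 0.241. All 9 had a higher mean in nonresponsive tumors, as had 44.5% of all genes, but no carrier gene was called (adjusted p = 0.718 for each), where 0.0798% of all genes passed the adjusted test. Unadjusted calls were 0 of 9 against 1.51% of all genes called higher, and groups separated for 0 of 9 against 3.23%. Of the 6 omissions of 1 tumor, that of PBS tumor 1 gave the lowest median, 0.44, and the median was 1.44 without nonresponsive tumor 2 and 1.82 without nonresponsive tumor 3. The 3 comparisons share their groups in pairs, so their values stand side by side and are not independent of each other.

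The carrier mRNAs kept their proportions to one another to different degrees. Among the 36 pairs, log2 levels correlated at 0.885 to 0.997 over the 9 tumors, a description that includes the differences between groups. The tightest ratio was that of Ahsg to Gc, which stayed between 1.35 and 1.86. Ahsg, Gc and Ambp kept ratios within a 1.45-fold range or less of each other, whereas the ratio of Ttr to Rbp4 spanned 11.9-fold.

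Which carrier came first differed between groups. Trf exceeded Alb in each PBS and each nonresponsive tumor, and Alb exceeded Trf in each responsive tumor. The ratio of Alb to Trf was 0.671, 0.800 and 0.794 in PBS tumors, 0.787, 0.811 and 0.837 in nonresponsive tumors and 1.06, 1.42 and 1.19 in responsive tumors. The summed FPKM of the carrier mRNAs in nonresponsive tumor 1 (9931) lay between those of responsive tumor 2 (7951) and 3 (12848), and its ratio of Alb to Trf was 0.787. This ratio was picked after its values were seen and is 1 of 11 among the 36 pairs whose ratios did not overlap between responsive and nonresponsive tumors, so it is a description without a test. Rbp4 made up 18.9% of the summed FPKM in PBS tumor 1, and 4.82% to 10.3% in the other tumors.

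**Figure D3:**
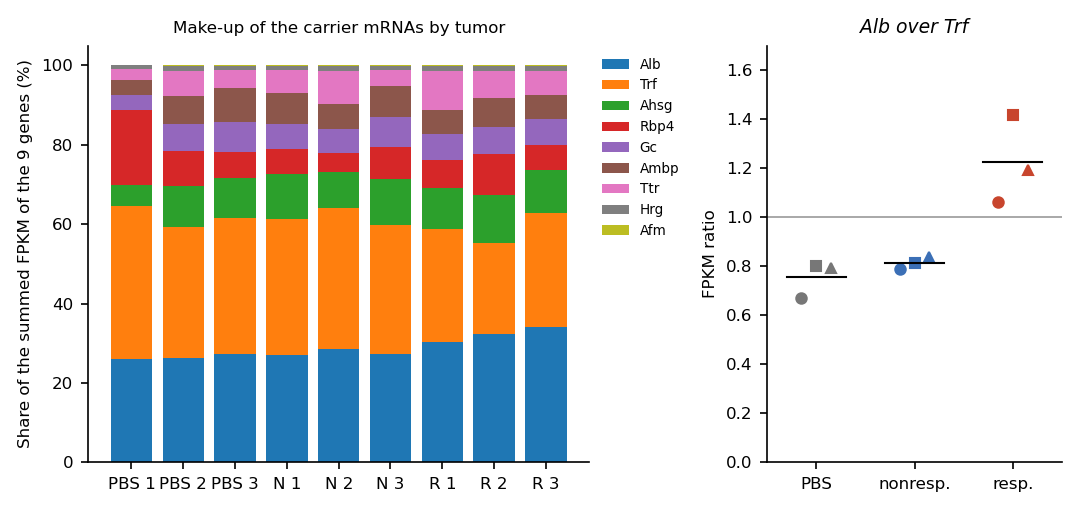
Left, share of each gene in the summed FPKM of the 9 carrier genes (percent) in each tumor, where N is nonresponsive and R responsive; right, ratio of Alb to Trf FPKM per tumor, with group means as bars and a gray line at 1. The ratio is 0.837 or lower in PBS and nonresponsive tumors and 1.06 or higher in responsive tumors.

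Most hepatocyte markers outside the 9 had higher means in the groups where the carriers had them. The 14 hepatocyte markers, which include Cyp2e1 (a cytochrome P450 of pericentral hepatocytes), Cps1 (urea cycle) and the bile acid transporter Slc10a1, summed to 153 to 1475 FPKM in PBS, 1028 to 3904 FPKM in nonresponsive and 2775 to 8142 FPKM in responsive tumors. None was at 0 in all tumors, and Slc10a1 alone was listed at 0 in some, namely PBS tumor 2 and nonresponsive tumor 3. Of these markers, 7 of 14 had an unadjusted limma p under 0.05 for responsive over nonresponsive (median log2 difference 1.41), 12 of 14 for responsive over PBS (2.87) and 0 of 14 for nonresponsive over PBS (1.39), all of the called ones higher, and none passed after adjustment. Between the antibody groups the responsive mean was the higher one for 13 of 14. The exception was Arg1, the arginase of the urea cycle, at 68.9 to 348 FPKM in PBS, 162 to 676 FPKM in nonresponsive and 150 to 407 FPKM in responsive tumors (log2 difference -0.69, unadjusted p = 0.329). For responsive over nonresponsive, the called markers numbered 3 of 14 without nonresponsive tumor 2 or 3 and 2 of 14 without responsive tumor 1, and for responsive over PBS 10 of 14 without PBS tumor 1 (median 1.96) and 5 of 14 without responsive tumor 1. The nonresponsive over PBS median was 0.42 without PBS tumor 1. The part of adjacent liver in the level of the carrier genes was not tested, and whether host hepatocytes or tumor cells made these transcripts cannot be told apart in bulk RNA.

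Some markers of other cells also had higher means in responsive tumors, though not all of them in every comparison. The 4 erythroid markers, hemoglobin genes with near-identical copies, had higher means in all 3 comparisons, with median log2 differences of 0.99 for responsive over nonresponsive, 1.89 for responsive over PBS and 0.83 for nonresponsive over PBS. They summed to 71.8 to 454 FPKM in PBS, 131 to 694 FPKM in nonresponsive and 439.8 to 733 FPKM in responsive tumors. Hbb-bs and Hbb-bt had the same value in PBS tumor 3, nonresponsive tumor 1 and responsive tumors 1 and 2. Hba-a1 and Hba-a2 had the same value in responsive tumor 2. The sums of these tumors hold each such value more than once, and sums with it counted once were not computed. The ranges therefore do not show how far the groups lie apart. An unadjusted p under 0.05 was reached by 2 of 4 (Hba-a1 and Hba-a2) for responsive over PBS and by none in the other comparisons. The 3 markers of Kupffer cells, the resident macrophages of the liver, summed to 2.22 FPKM in PBS tumor 1, 27.5 and 60.3 FPKM in the other PBS tumors, 35.1 to 120 FPKM in nonresponsive and 54.0 to 120 FPKM in responsive tumors. Their median log2 differences were 0.37 for responsive over nonresponsive, 1.98 for responsive over PBS and 1.61 for nonresponsive over PBS. In each comparison 0 of 3 were called, and without PBS tumor 1 the last 2 medians were 0.95 and 0.60. The first median was -0.05 without nonresponsive tumor 3 and 0.45 without nonresponsive tumor 2. Cd79a, a subunit of the B cell receptor, measured 0.422, 23.6 and 13.1 FPKM in PBS, 0, 7.91 and 6.73 FPKM in nonresponsive and 47.0, 24.4 and 67.4 FPKM in responsive tumors. Ms4a1, which encodes CD20 of B cells, measured 0.125, 7.76 and 4.13 FPKM, then 4.89, 3.45 and 2.85 FPKM, then 17.6, 6.14 and 28.0 FPKM. Neither overlapped between the antibody groups (log2 differences 3.41, unadjusted p = 0.0102, and 1.75, unadjusted p = 0.0176, adjusted p = 0.886 for both). Unlike the carriers, Cd79a had a lower mean in nonresponsive than in PBS tumors, 4.88 against 12.4 FPKM. The FPKM mean of Ms4a1 was also lower in nonresponsive than in PBS tumors, while its log2 mean was higher. Of the 3 B cell markers, 2 had a higher log2 mean in nonresponsive tumors. This count was 0 of 3 without PBS tumor 1 and 3 of 3 without nonresponsive tumor 1, so the direction was not stable. Other lists had mostly lower means in responsive than in nonresponsive tumors. A higher mean was seen for 1 of 5 macrophage markers (median log2 difference -0.34) and 1 of 4 endothelial markers (-0.12). It was seen for 2 of 5 fibroblast and stellate cell markers (-0.57), but for 5 of 5 T cell markers (0.35). For responsive over PBS the medians were 0.57, 0.39, 0.032 and 0.62 in the same order. The part of any of these cells in the differences of the carrier genes was not tested.

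Each carrier gene tracked the mean of the hepatocyte markers over the 9 tumors. Pearson's r lay between 0.941 (Rbp4) and 0.991 and Spearman's rho between 0.883 and 1, with exact permutation p-values of at most 0.000207 for r and 0.00308 for rho, and at most 0.000413 and 0.00615 after adjustment over the 18 relations computed. Without PBS tumor 1 and responsive tumor 1, the tumors farthest from the median marker level, r was 0.898 to 0.991, and after group means were taken out it was 0.902 to 0.980. Alb had an r of 0.988 and Trf of 0.977. Against the mean of 3 proliferation genes (Mki67, Top2a and Cdk1) r was -0.747 (Trf) to -0.642, with adjusted exact permutation p-values of 0.0340 to 0.0677, and within groups it was -0.791 to -0.507.

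**Figure D4:**
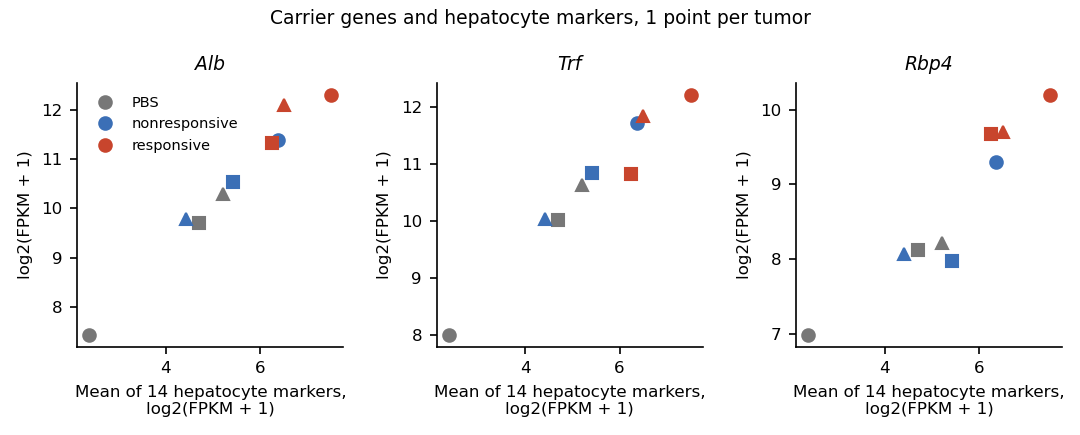
Level of Alb, Trf and Rbp4 against the mean of 14 hepatocyte markers, both as log2(FPKM + 1), with 1 point per tumor; gray, blue and red stand for PBS, nonresponsive and responsive tumors, and circle, square and triangle for tumors 1, 2 and 3. The points rise together in each panel, with r of 0.988 for Alb, 0.977 for Trf and 0.941 for Rbp4.

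Among 10775 genes with at least 1 FPKM in every tumor, those with a pattern most like the mean of the 9 carriers over the 9 tumors were Ugt2b36 (r = 0.9987), Apoh, Slc27a5, Hgd, Ugt2b34, Gjb2, Slc38a3, Serpind1, Itih1 and Cdo1 (r = 0.997). Ugt2b36 encodes a glucuronosyltransferase, Slc27a5 an enzyme of bile acid conjugation, Hgd an enzyme of tyrosine breakdown and Apoh and Serpind1 plasma proteins. Ugt2b36 ran from 2.18 to 113 FPKM over the tumors.

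Other plasma carriers of the liver mostly had higher means in responsive tumors too. Of 15 related genes, 14 were tested and 13 had a higher mean in each comparison, with Afp as the exception. Among them were the acute-phase hemoglobin scavenger haptoglobin (Hp), the heme carrier hemopexin (Hpx) and the acid glycoprotein Orm1. For responsive over nonresponsive, 3 of 14 had an unadjusted p under 0.05 (median log2 difference 0.82), for responsive over PBS 6 of 14 (2.41) and for nonresponsive over PBS 0 of 14 (1.29), all of the called ones higher and none after adjustment. With Orm1, Orm2 and Orm3, which share 1 entry in all 6 antibody-treated tumors, counted once, a choice made after the data were seen, the counts were 3, 6 and 0 of 12 and the medians 0.92, 2.31 and 1.24. With all 14 counted, the responsive over nonresponsive calls were 1 of 14 without nonresponsive tumor 2 or 3, and the medians over PBS tumors were 1.37 and 0.41 without PBS tumor 1. Afp had no stable direction, since 14 of 14 had a higher mean for responsive over nonresponsive without responsive tumor 1 or 3. The same count was reached for nonresponsive over PBS without nonresponsive tumor 1, against 12 of 14 without PBS tumor 1. Hp measured 145, 1309 and 2127 FPKM in PBS, 4152, 1995 and 1306 FPKM in nonresponsive and 5459, 1934 and 3631 FPKM in responsive tumors, and its responsive over nonresponsive log2 difference of 0.61 had an unadjusted p of 0.366. Hpx gave 0.73 (unadjusted p = 0.250) and Orm1 0.53 (unadjusted p = 0.462), the latter from an entry joined with Orm2 and Orm3 in 7 of 9 tumors. Shbg was at or near 0 in every tumor and was not tested. Serpina6, which encodes the corticosteroid carrier transcortin and was singled out after its values were seen, measured 0.375, 8.27 and 4.14 FPKM in PBS, 12.3, 7.43 and 3.57 FPKM in nonresponsive and 23.6, 26.8 and 28.1 FPKM in responsive tumors, without overlap of the antibody groups (log2 difference 1.76, unadjusted p = 0.00493, adjusted p = 0.886).

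The receptors that take up or recycle these proteins did not all follow them. Of 12 genes, 9 were tested, and the endocytic receptor genes Lrp2, Cubn and Amn were too low, at or below 1.08 FPKM in every tumor. For responsive over nonresponsive 3 of 9 had an unadjusted p under 0.05, for responsive over PBS 6 of 9 and for nonresponsive over PBS 1 of 9, all higher, with median log2 differences of 0.73, 1.64 and 0.88 and no call after adjustment. The responsive over nonresponsive calls were 0 of 9 without nonresponsive tumor 2, nonresponsive tumor 3 or responsive tumor 1, apart from 1 gene called lower without nonresponsive tumor 2, and the medians over PBS tumors were 1.13 and 0.36 without PBS tumor 1. Asgr1, a subunit of the asialoglycoprotein receptor of hepatocytes and also 1 of the 14 hepatocyte markers, differed by 1.32 between antibody groups (unadjusted p = 0.0329).

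The means of the transferrin receptor genes differed in direction. Tfr2, the hepatocyte sensor of iron-loaded transferrin, measured 2.10, 12.5 and 17.1 FPKM in PBS, 38.1, 15.3 and 13.0 FPKM in nonresponsive and 63.9, 33.5 and 42.5 FPKM in responsive tumors. Its log2 difference was 1.15 over nonresponsive (unadjusted p = 0.0487) and 2.33 over PBS tumors (unadjusted p = 0.0179). Tfrc, the receptor by which most dividing cells take up iron, measured 17.5, 10.2 and 13.1 FPKM, then 8.88, 16.6 and 15.9 FPKM, then 8.28, 6.80 and 10.6 FPKM, with log2 differences of -0.60 in both comparisons of responsive tumors (unadjusted p = 0.0945 and unadjusted p = 0.0623). Both were named after their values were seen, and neither passed after adjustment.

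On the retinol side, Stra6, the membrane receptor for Rbp4, was erratic between tumors. It measured 419, 237 and 297 FPKM in PBS, 0.621, 150.4 and 334 FPKM in nonresponsive and 0.688, 282 and 76.3 FPKM in responsive tumors. It was nearly absent from nonresponsive tumor 1 and responsive tumor 1, which had the highest Alb of their groups, and Afp, the fetal member of the albumin family, was at 0.321 and 0.646 FPKM in the same 2 tumors against 4.40 to 56.5 FPKM elsewhere. The Stra6 log2 difference of -0.38 between antibody groups (unadjusted p = 0.891) turned positive when responsive tumor 1 (1.77) was left out, and likewise for nonresponsive tumor 2 (0.52) and nonresponsive tumor 3 (1.09).

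**Figure D5:**
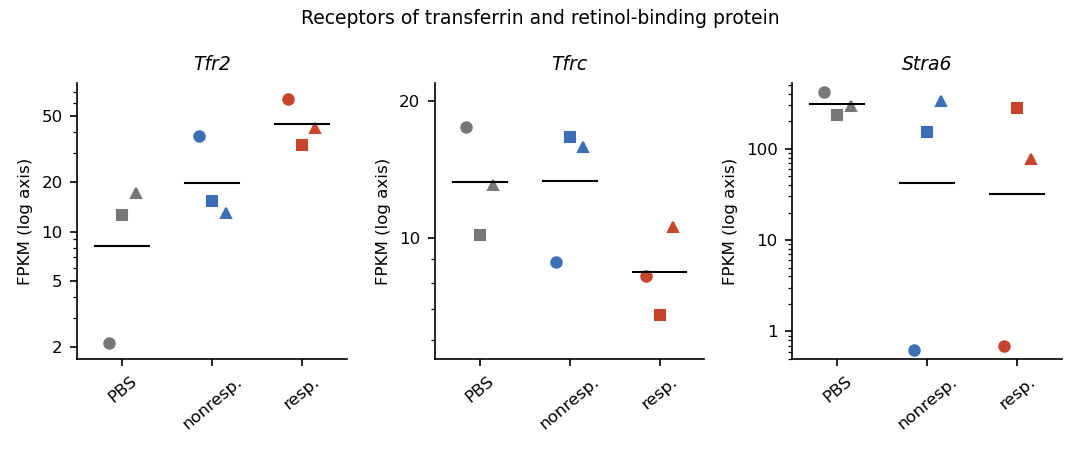
FPKM (log axis) of Tfr2 and Tfrc, receptors of transferrin, and of Stra6, the receptor of Rbp4; each point is 1 tumor and each bar the group mean on the log2(FPKM + 1) scale. Responsive tumors hold 33.5 FPKM or more of Tfr2 and 10.6 FPKM or less of Tfrc, and Stra6 is below 1 FPKM in nonresponsive tumor 1 and responsive tumor 1.

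Bikunin from Ambp is joined in plasma to some members of the inter-alpha-inhibitor heavy chain family. Of the 5 genes of this family, 3 had an unadjusted p under 0.05 for responsive over nonresponsive (Itih2, Itih3 and Itih4). The count was 4 for responsive over PBS and 0 for nonresponsive over PBS, all higher, and none after adjustment. Itih4 measured 9.72, 79.0 and 123 FPKM in PBS, 192, 136 and 77.5 FPKM in nonresponsive and 307, 191 and 264 FPKM in responsive tumors, a log2 difference of 0.97 between antibody groups beside 0.93 for Ambp. Itih3 differed by 1.02 and Itih2 by 0.93. None of the 5 was called between antibody groups without nonresponsive tumor 2 or 3 or responsive tumor 1 or 3. Itih2 measured 44.7 to 54.5 FPKM in PBS, 39.7 to 68.8 FPKM in nonresponsive and 75.2 to 131 FPKM in responsive tumors. Itih5 stayed between 1.58 and 4.98 FPKM over the 9 tumors (log2 difference -0.14 between antibody groups, unadjusted p = 0.696).

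Transcription factors of the hepatocyte were tested for 10 of 11 genes, Dbp being listed at 0 throughout. For responsive over nonresponsive 2 of 10 had an unadjusted p under 0.05, for responsive over PBS 6 of 10 and for nonresponsive over PBS 0 of 10, all higher, with median log2 differences of 0.58, 0.72 and 0.22 and none passing after adjustment. The responsive over nonresponsive calls were 1 of 10 without nonresponsive tumor 2 or 3 or responsive tumor 1, and 5 of 10 without nonresponsive tumor 1. Hnf4a, singled out after its values were seen, measured 12.6, 11.2 and 12.4 FPKM in PBS, 23.7, 12.8 and 12.4 FPKM in nonresponsive and 38.3, 24.7 and 39.0 FPKM in responsive tumors. It was not low in PBS tumor 1, where all 9 carrier genes were at their lowest. Its log2 difference was 1.05 over nonresponsive (unadjusted p = 0.0197) and 1.40 over PBS tumors (unadjusted p = 0.000900, adjusted p = 0.219). Cebpa differed by 0.58 (unadjusted p = 0.283) between antibody groups. Cebpb (-0.14) and Foxa2 (0.14) had no stable direction there, Cebpb turning to 0.41 without nonresponsive tumor 1 and Foxa2 to -0.79 without the same tumor.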

How the data were processed

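Bulk RNA sequencing covered tumors of 3 PBS, 3 nonresponsive and 3 responsive mice. The authors deposited 1 Cufflinks gene table per tumor, with FPKM as the unit. Per the labels, Bowtie2 2.2.4 and TopHat2 2.1.1 were used. The Cufflinks version is not given in the sources used here. The labels name mm8, but the positions in the tables were not matched to a build, so none are printed. A series table of the authors' group comparisons was not used.

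FPKM of entries naming a gene, split on commas, were summed per tumor. Genes with identical values in all tumors counted as 1 feature, and 13 genes with failed estimates were dropped, leaving 50390 features. Those with at least 1 FPKM in at least 3 of the 6 tumors of a comparison were tested on log2(FPKM + 1), a scale that understates differences of low genes, with limma 3.58.1 in R 4.3.3 (lmFit, eBayes with trend), two-sided, with Benjamini-Hochberg adjustment and a threshold of 0.05. The study compared groups with Cuffdiff, which needs reads. Correlations used exact permutation tests (scipy 1.17.1, Python 3.11.15). The limma step alone was tested on simulated data, with values drawn for each gene on its own.

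The deposited tables give no read totals, so only relative depth is known. Cufflinks intervals spanned 3.27% to 8.03% of the FPKM on either side for 8 of the 9 genes outside PBS tumor 1, and 4.54% to 17.4% in PBS tumor 1. Afm had wider ones, up to 81.9%, and Gc in responsive tumor 3 is left out of these ranges.

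The members and gene lists were chosen with earlier results of these data known. Named genes are the 9 carriers, the 3 genes of highest mean FPKM in each list, any list gene with an adjusted p under 0.05 and the 10 genes most like the mean carrier pattern. Tfrc, Tfr2, Hnf4a, Serpina6, Itih5, Arg1 and the cell type markers named were picked after their values were seen. A list gene that the rule names is not reported here.

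Alternatives were pseudocount 0.1, no filter, a filter at 5 FPKM, upper-quartile and median-ratio scaling, named genes rescaled to a common sum, joined loci, a single fit of all tumors, a block for the replicate number, an ordinary Student test and leaving out each tumor, with the Orm genes counted once added after the data were seen.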

Additional observations from a re-analysis of the deposited data

How the results depend on the processing

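No carrier gene passed an adjusted p of 0.05 in any comparison under any of the alternatives run, and none of their 432 log2 differences turned direction. For responsive over nonresponsive tumors, the carrier genes with an unadjusted p under 0.05 numbered 5 in the reported test. All genes called higher in this way numbered 560 of 13832. With no filter the counts were 3 and 724 of 24352, and with upper-quartile scaling 3 and 558 of 13854. They were 2 and 319 of 14331 with named genes rescaled to a common sum, and 2 and 553 of 13866 with median-ratio scaling. All 9 tumors in 1 fit gave 1 and 443 of 13832, and a Student test 1 and 406 of 13832. With 1 tumor left out, 0 to 7 carrier genes and 1.53% to 7.16% of all genes were called higher. For responsive over PBS the carrier genes numbered 8 in the reported test (1174 of 13841 genes called higher) and 3 with a Student test (883 of 13841). With 1 tumor left out they numbered 3 to 9 (4.09% to 9.34% of all genes). The lowest count, 3, came without responsive tumor 1 or 3. The median log2 difference ran from 0.83 to 1.68, 1.69 to 3.29 and 0.44 to 2.00 in the 3 comparisons with 1 tumor left out. Rescaling named genes to a common sum took the median of all genes for responsive over nonresponsive from -0.066 to -0.24 and the unadjusted calls from 560 higher and 199 lower to 319 higher and 582 lower, while the median of the carriers was 1.06. For responsive over PBS the same rescaling took the calls from 1174 and 1213 to 927 and 2204, and median-ratio scaling took them to 1455 and 799.

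The replicate number as a block gave 6 carrier genes with an unadjusted p under 0.05 for responsive over nonresponsive, 5 for responsive over PBS and 0 for nonresponsive over PBS. With the same block 739 of 13832, 649 of 13841 and 115 of 13793 genes were called higher. Deviations of same-numbered tumors correlated at 0.51, 0.060 and -0.027, at -0.31, -0.34 and 0.14, and at -0.42, -0.051 and -0.19 in these comparisons, so the numbers do not pair the tumors. Over all genes, 16, 32 and 11 passed the adjusted test, against 1, 0 and 0 with the block, 7, 20 and 5 with a Student test, 8, 19 and 5 with joined loci, and 0 to 32, 7 to 49 and 2 to 30 with 1 tumor left out. No filter gave 10 and 5 genes in the first and last comparison, a filter at 5 FPKM 8 in the first, and all 9 tumors in 1 fit 16 and 6 in the other two. The extremes came without responsive tumor 3 (0) and nonresponsive tumor 1 (32), without responsive tumor 3 (7) and PBS tumor 2 (49), and without nonresponsive tumor 2 (2) and 3 (30).

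Directions were followed for the carriers and for a part of the list genes, without Afp and the cell type markers. Those that turned were of list genes with small differences. For responsive over nonresponsive, Stra6 turned to 0.52, 1.09 and 1.77 without nonresponsive tumors 2 and 3 and responsive tumor 1 (range -2.76 to 1.77 with 1 tumor left out), Cebpb to 0.41 and 0.13 without nonresponsive tumor 1 and responsive tumor 2 (-0.55 to 0.41), and Foxa2 to -0.039 with named genes rescaled and to -0.79 and -0.70 without nonresponsive tumor 1 and responsive tumor 2 (-0.79 to 0.94). Cebpb for responsive over PBS turned to -0.029 without PBS tumor 1 (-0.029 to 0.72). For nonresponsive over PBS, Tfrc turned to -0.17, -0.0051, -0.15 and -0.11 without PBS tumors 2 and 3 and nonresponsive tumors 2 and 3 (-0.17 to 0.27), and Itih2 to -0.014 and -0.17 without PBS tumor 2 and nonresponsive tumor 1 (-0.17 to 0.22). The cause of these changes was not tested.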
